A study of Mus musculus with 19 samples.

Results

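Autophagy delivers cytoplasm, damaged organelles and protein aggregates to the lysosome, and the genes described here encode the proteins that build the autophagosome. They were taken from the gene table by symbol and not by any measured value. The list held the Atg genes, Ulk1 to Ulk3, Wipi1 and Wipi2, the Map1lc3 and Gabarap genes, and 12 further named genes of initiation, nucleation, tethering and transcriptional control. It matched 40 of 50559 genes in the table, after 2 rows for pseudogenes (Atg4a-ps and Gabarapl2-ps) had been left out. All 40 passed the filter on low counts that left 15572 genes for tests across the day.

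The mRNA came from ribosomes of cholinergic neurons in the spinal cord of wild-type C57BL/6J male mice aged 10 weeks. The mice carried ChAT-Cre and one RiboTag allele, which adds a hemagglutinin tag to a ribosomal protein wherever Cre recombinase has acted. Immunoprecipitation of the tag recovers ribosome-bound mRNA. Because Cre was driven by the choline acetyltransferase gene, all cholinergic cells of the cord were tagged and not motor neurons alone. Mice were kept in a 12-h light, 12-h dark cycle and taken at Zeitgeber Time (ZT, hours after lights on) 0, 4, 8, 12, 16 or 20, with 3 mice and 3 libraries per time point, 1 spinal cord per homogenate. A single input library came from pooled homogenate taken before precipitation.

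The 18 immunoprecipitates held between about 6302140 and 22406800 counts in total, and the input about 15239800. The 7 cholinergic markers summed to between 4273 and 5081 counts-per-million units (CPM) in the immunoprecipitates and to 449 CPM in the input. The 7 oligodendrocyte markers summed to between 1538 and 2919 CPM and to 21254 CPM in the input. Astrocyte markers summed to between 133 and 205 CPM against 2874 in the input, and microglial markers to between 8.39 and 15.4 CPM against 162. No marker on the lists was at 0 in all immunoprecipitates. The biological coefficient of variation between mice, the square root of the common dispersion of edgeR, was 19.2%.

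Autophagosome formation starts when the ULK1 kinase complex is activated and the class III phosphatidylinositol 3-kinase complex marks the membrane. ATG9 vesicles, the lipid transfer proteins ATG2A and ATG2B and the WIPI proteins then feed the growing membrane. Finally 2 conjugation systems attach members of the Atg8 family (LC3 and GABARAP proteins) to its lipids, where they bind cargo receptors. Neurons do not divide and so cannot dilute damaged material, and in motor neurons autophagosomes formed in distal axons travel long distances to the cell body.

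Promoter sequence was available for 32 of the 40 genes, as 38 promoters of RefSeq on GRCm38.p6 running from 250 bases before to 50 bases after the transcription start. Both strands were searched for the E-box of the clock activators (CACGTG), the longer CLEAR element of TFEB and TFE3 (an E-box with GT before it and AC after it), the D-box (TTATGTAA or TTATGCAA), the cAMP response element (TGACGTCA) and the GC-box of Sp1-type factors (GGGCGG). An E-box was found in 4 of 38 promoters (10.5%), those of Atg3, Atg5, Atg7 and Atg14, against 9.46% of the promoters of all tested genes. The GC-box was found in 23 of 38 (60.5%) against 59.6%, and the CLEAR element in 0 of 38 against 0.593%. A D-box was found in Atg14 alone, and the cAMP response element in Atg5 and Atg16l2. A match is a run of letters and not evidence of binding, and these windows hold only the sequence next to the start.

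Of the 12 genes whose level differed between time points, 11 had a promoter entry. None of these 11 held an E-box, a CLEAR element, a D-box or a cAMP response element, and 7 held a GC-box. The 250 bases before the start are given for 3 genes that were lower at ZT8 than at ZT0 (Ulk1, Map1lc3b and Gabarapl1), for Atg101, which was higher, and for Atg3, which holds 2 E-boxes and was called in neither direction. Each is written from 5′ to 3′ on the strand of the gene, with GC-boxes (read as GGGCGG or, from the other strand, CCGCCC) and E-boxes in capitals. The stretches lie on GRCm38.p6 at chr5:110810082-110810331 (minus strand) for Ulk1, chr8:121590188-121590437 (plus) for Map1lc3b, chr6:129532942-129533191 (plus) for Gabarapl1, chr15:101284051-101284300 (plus) for Atg101 and chr16:45158579-45158828 (plus) for Atg3.
Ulk1: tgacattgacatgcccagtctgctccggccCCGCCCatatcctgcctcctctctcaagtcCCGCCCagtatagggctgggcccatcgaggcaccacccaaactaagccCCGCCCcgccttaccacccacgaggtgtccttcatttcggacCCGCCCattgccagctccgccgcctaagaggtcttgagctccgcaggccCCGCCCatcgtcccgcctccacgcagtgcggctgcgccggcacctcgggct
Map1lc3b: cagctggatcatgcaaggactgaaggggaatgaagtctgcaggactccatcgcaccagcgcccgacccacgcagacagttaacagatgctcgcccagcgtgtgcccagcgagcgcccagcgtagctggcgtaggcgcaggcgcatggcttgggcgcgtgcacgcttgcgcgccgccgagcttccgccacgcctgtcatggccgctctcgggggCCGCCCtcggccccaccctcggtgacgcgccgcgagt
Gabarapl1: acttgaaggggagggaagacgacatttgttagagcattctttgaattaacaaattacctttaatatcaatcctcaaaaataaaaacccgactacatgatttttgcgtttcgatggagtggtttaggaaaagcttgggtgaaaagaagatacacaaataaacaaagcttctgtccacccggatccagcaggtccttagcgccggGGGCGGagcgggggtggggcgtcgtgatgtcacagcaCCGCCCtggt
Atg101: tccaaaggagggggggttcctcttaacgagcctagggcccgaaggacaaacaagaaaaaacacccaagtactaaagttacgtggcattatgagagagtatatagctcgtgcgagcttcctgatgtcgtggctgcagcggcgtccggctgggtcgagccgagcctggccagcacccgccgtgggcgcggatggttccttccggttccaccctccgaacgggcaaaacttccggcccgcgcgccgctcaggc
Atg3: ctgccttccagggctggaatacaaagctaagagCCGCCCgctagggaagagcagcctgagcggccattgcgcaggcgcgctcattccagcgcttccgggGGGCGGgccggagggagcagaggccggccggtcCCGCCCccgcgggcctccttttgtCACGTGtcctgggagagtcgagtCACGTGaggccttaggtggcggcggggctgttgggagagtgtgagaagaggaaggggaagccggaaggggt
The Ulk1 stretch carries GC-boxes along its length, that of Atg101 carries none of the letters searched, and both E-boxes of Atg3 lie in the 3′ part of its stretch.

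The Atg8 family gave the highest levels of all machinery genes once transcript length was allowed for. On the scale of mean CPM per kilobase of the longest protein-coding transcript, its 5 members held ranks 1 to 5 of 40. Map1lc3a, which encodes LC3A, stood at 411 ± 41.0 CPM per kb (SD over 18 libraries) and Gabarapl1 at 338 ± 59.4. Gabarapl2, Gabarap and Map1lc3b, which encodes LC3B, followed at 116 ± 9.83, 97.2 ± 7.25 and 94.2 ± 16.2 CPM per kb. The last 2 of these differed by less than their spread. Atg101, a subunit of the ULK1 complex, was next at 81.6 ± 17.9 CPM per kb, also within the spread of Map1lc3b, and Wdr45, which encodes the PROPPIN protein WIPI4, stood at 47.9 ± 5.39.

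Among the genes of the ULK1 complex and the Ulk1 paralogs Ulk2 and Ulk3, the level ran from 4.46 CPM per kb for Ulk2 to that of Atg101. In the class III PI3-kinase complex it ran from 1.67 for Atg14 to 23.3 for Pik3c3, the catalytic subunit. The conjugation enzymes ran from 0.607 CPM per kb for Atg16l2, the lowest of all 40, to 18.3 for its paralog Atg16l1. The ATG4 proteases, which process the Atg8 proteins, ran from 0.661 for Atg4a to 18.5 for Atg4b. Among the transcription factors of lysosomal and autophagy genes, Tfe3 stood at 14.5 ± 1.87 CPM per kb and Tfeb at 9.69 ± 1.29. Atg4a was the single member with under 10 counts in any library, with 8 in its shallowest.

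**Figure D1:**
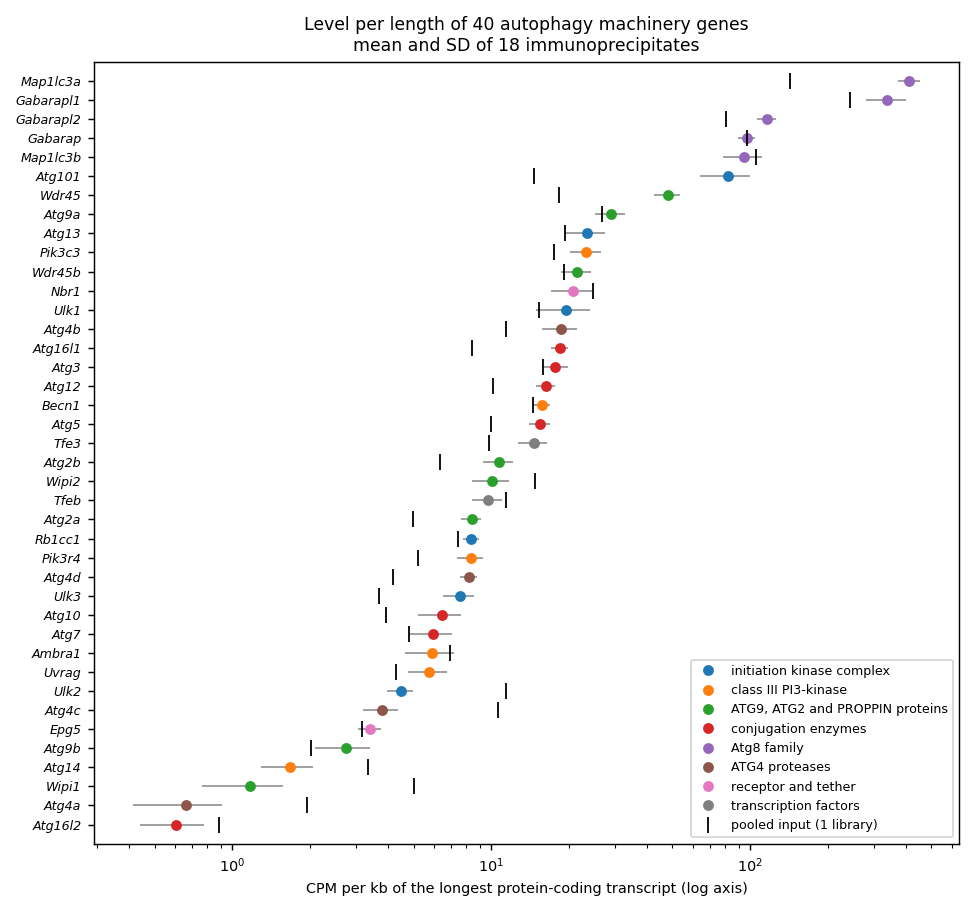
Mean level per length (CPM per kb, log axis) of the 40 autophagy genes in 18 immunoprecipitates, with SD as bars and the pooled input as black ticks. The 5 Atg8 family genes occupy the top of the order and Atg16l2 and Atg4a, at 0.607 and 0.661 CPM per kb, the bottom.

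Comparison with the input asks which of these mRNAs were more or less frequent on cholinergic neuron ribosomes than in the whole cord. There was 1 input library, so the ratios carry no test, and for bulk RNA fewer cells of a type and less RNA per cell cannot be told apart. A gene was called above the input at a mean ratio of at least 2-fold with all 18 immunoprecipitates above it. This held for 5 of 40 members, Atg101, Map1lc3a, Wdr45, Atg16l1 and Ulk3, where 13.9% of 17901 genes compared were above. Another 5 were below by the mirror rule, Wipi1, Atg4a, Atg4c, Ulk2 and Atg14, where 23.0% of genes were below. The median log2 ratio was 0.33 over the members and −0.10 over all genes compared.

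Atg101 had the highest ratio. Its level in the input was 18.5 CPM (95% Poisson interval 16.6 to 20.6, counting error only), and over the 18 immunoprecipitates it ran from 70.4 through a median of 102 to 151 CPM, a log2 ratio of 2.49. Every immunoprecipitate lay above the input, the lowest of them by a wide margin. Map1lc3a ran from 343 through 479 to 516 CPM against 158 CPM in the input (152.9 to 164), a log2 ratio of 1.53. Wdr45 ran from 62.7 through 75.9 to 98 CPM, and the input held 29.3 CPM (26.9 to 31.8), which gave a log2 ratio of 1.40. Another protein-coding gene model (Gm45208) overlaps Wdr45 on its own strand, and the counting model divides reads between them.

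Paralogs stood on opposite sides of the input in the PROPPIN, ATG4 and ULK families. Wipi1, a PROPPIN protein that binds phosphatidylinositol 3-phosphate, ran from 1.12 through 4.08 to 6.12 CPM against 16.8 CPM in the input (15.0 to 18.7), a log2 ratio of −2.10, whereas Wdr45 of the same family was above. Atg4c ran from 7.67 through 12.3 to 14.9 CPM, below the 33.8 CPM (31.2 to 36.5) of the input at a log2 ratio of −1.49, whereas its paralogs Atg4b and Atg4d had log2 ratios of 0.69 and 0.97. Ulk2 ran from 19.96 through 25.9 to 30.6 CPM, below the 65.1 CPM (61.5 to 68.8) of the input at a log2 ratio of −1.34, whereas Ulk3 and Ulk1 had log2 ratios of 1.04 and 0.35. In each of these 3 genes all 18 immunoprecipitates lay below the input. Scaling by library totals moved the medians to −0.43 for all genes and −0.0025 for the members, and left 3 members above the input. The share of all genes above it with this scaling was not taken.

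**Figure D2:**
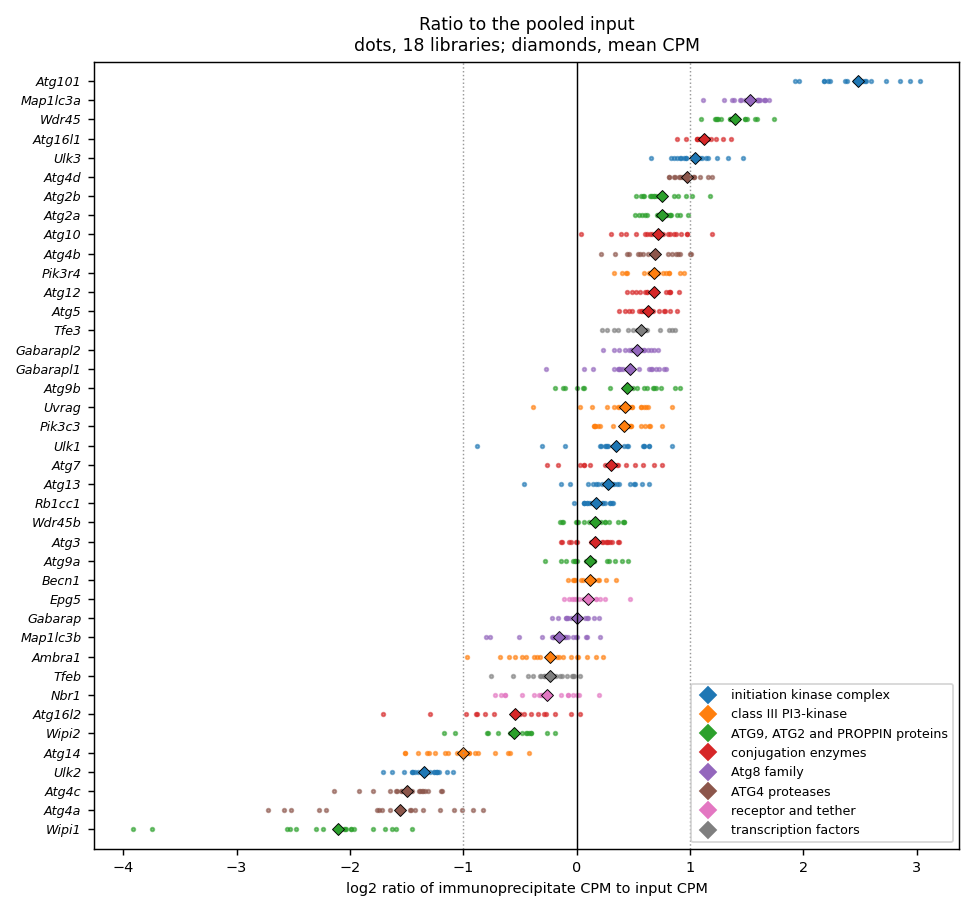
log2 ratio of each immunoprecipitate to the pooled input for the 40 autophagy genes, with small dots for the 18 libraries, diamonds for the ratio of mean CPM and dotted lines at a 2-fold difference. Atg101 sits at 2.49 and Wipi1 at −2.10, and most genes lie between the dotted lines.

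Across the day the lowest mean level fell at ZT8, in the light phase, for 18 of the 40 members, and the highest mean at ZT16, in the dark phase, for 12. The same counts were not taken over all genes, so they are not shown to be particular to the members. The pairs ZT8 against ZT0 and ZT16 against ZT8 were the ones in which members passed the test. In both, Ulk1, Map1lc3b, Gabarapl1, Atg4b, Nbr1 and Atg13 were lower at ZT8, and Atg101 and Atg2b were higher there. These differences were between 0.37 and 0.83 on the log2 scale. Time points were compared by the edgeR quasi-likelihood test fitted to the 18 immunoprecipitates together, and the false discovery rate (FDR, the p-value adjusted over all 15572 genes by the Benjamini-Hochberg method) was called at 0.05.

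At ZT8 compared with ZT0, 10 of 40 members differed, 3 higher and 7 lower, where 18.0% of all tested genes were called (8.95% higher and 9.02% lower). The members' share of 25% is set beside that of all genes and was not tested against it. The libraries of the groups did not overlap for 17 of 40 members, where this held for 34.7% of all genes. The median log2 difference was −0.21 over the members and −0.003 over all genes, with 28 of 40 estimates below 0 against 50.2% of all genes. The count rested on single libraries. Leaving out ZT8 replicate 2 or ZT0 replicate 1 brought it to 0, ZT8 replicate 3 to 2 and ZT0 replicate 3 to 4, and leaving out ZT8 replicate 1 brought it to 15. The share of all genes called without these libraries was not taken, so these changes are not set beside those of all genes. In all 7 members that were lower at ZT8, replicate 1 was the highest of the ZT8 libraries.

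At ZT16 compared with ZT8, 10 of 40 members differed, 8 higher and 2 lower, where 16.9% of all genes were called (9.11% higher and 7.80% lower). This pair uses the same ZT8 libraries as the first, so the pairs are not independent, and 8 members were called in both. Counting either pair, 12 members were called, where 21.4% of all genes were called in any of the 15 pairs of time points. With a correction for GC content and transcript length, chosen after seeing the data, 7 members were higher and 4 lower at ZT16, where 19.9% of all genes were called. The same correction gave 3 higher and 7 lower at ZT8 compared with ZT0, where 20.9% were called. Leaving out replicate 2 of ZT8 or of ZT16 brought the count to 0, and ZT8 replicate 3 or ZT16 replicate 1 to 2, whereas leaving out ZT8 replicate 1 brought it to 15 and ZT16 replicate 3 to 16. It was also 0 when the 6 libraries of the pair were fitted alone. The shares of all genes called in these fits were not taken.

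Markers of the tagged cells and of other cells were read in the same libraries. The cholinergic markers summed to between 4415 and 4837 CPM at ZT0, 4273 and 4730 at ZT8, and 4675 and 5081 at ZT16. A sum follows the more abundant markers most, so single markers can differ from it. Of the 7, Chat, Slc5a7, Slc18a3 and Ache were lower at ZT8 than at ZT0, Chat by −1.74 on the log2 scale, where 18.0% of all genes were called. The rest were not called and held both signs. Isl1 (−0.39, FDR 0.15) was below 0, and Prph (0.32, FDR 0.051) and Mnx1 (0.098, FDR 0.63) were above 0. The oligodendrocyte markers summed to between 1840 and 2239 CPM at ZT0, 1761 and 2021 at ZT8, and 1970 and 2919 at ZT16, the last value in ZT16 replicate 3. Of these 7, Mbp was lower at ZT8. On the other lists 2 of 4 inhibitory neuron markers (Gad2 and Slc32a1) were lower at ZT8, where 18.0% of all genes were called. Tac1, 1 of 3 excitatory neuron markers, and Cx3cr1, 1 of 6 microglial markers, were higher. The other microglial markers tested were not called and held both signs. Csf1r (−1.47, FDR 0.11) and Tmem119 (−0.96, FDR 0.38) were below 0, and Aif1 (0.44, FDR 0.71) and C1qa (0.61, FDR 0.22) above 0. With an oligodendrocyte score as a covariate, 10 members were called in the first pair and 8 in the second, where 19.1% and 17.7% of all genes were called. The part of the cholinergic markers in the differences was not tested.

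**Figure D3:**
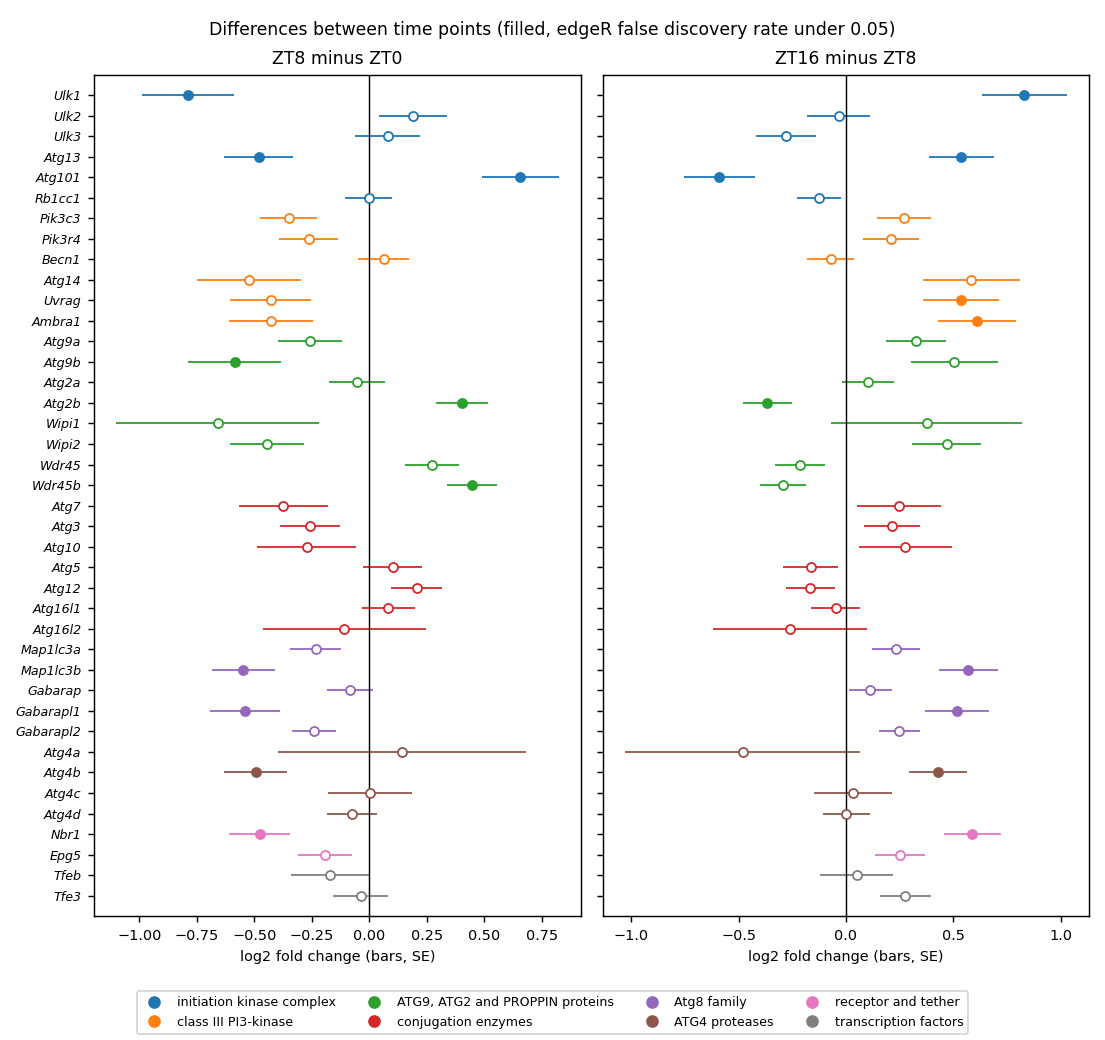
log2 difference with its SE for each of the 40 autophagy genes, grouped by role in colour, at ZT8 compared with ZT0 (left) and ZT16 compared with ZT8 (right), with filled points for FDR below 0.05. Filled points left of 0 in the first panel, such as Ulk1 at −0.79, lie right of 0 in the second, where both panels share the ZT8 libraries.

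The genes of the ULK1 complex, which receives nutrient signals, were grouped with the Ulk1 paralogs Ulk2 and Ulk3 and held both directions. Of the 6 genes in this group, 2 were lower and 1 higher at ZT8 than at ZT0. The remaining 3 (Ulk2, Ulk3 and Rb1cc1) were not called in either pair. After the GC and length correction Ulk3 was called at ZT16 compared with ZT8 (−0.50, FDR 0.019). Ulk1 (chromosome 5, 110784488 to 110810097, minus strand, GENCODE M21), the kinase itself, was at 121, 108 and 119 CPM at ZT0, 92.6, 43.4 and 64.7 CPM at ZT8, and 120, 143 and 95.4 CPM at ZT16. All ZT8 libraries lay below all ZT0 and ZT16 libraries, with replicate 1 nearest to them. The log2 differences were −0.79 ± 0.20 (SE, FDR 0.012) from ZT0 to ZT8 and 0.83 ± 0.20 (FDR 0.010) from ZT8 to ZT16.

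Atg13 (chromosome 2, 91674618 to 91710576, minus strand), the scaffold of the complex that the mTORC1 kinase phosphorylates, was at 99.3, 86.5 and 90.2 CPM at ZT0, 79.1, 50.3 and 66.9 at ZT8, and 96.7, 108 and 81.4 at ZT16. The ZT8 libraries again lay below both other groups. The log2 differences were −0.48 ± 0.15 (FDR 0.032) and 0.54 ± 0.15 (FDR 0.021), and neither was called after correction for GC content and length (−0.30 and 0.34). Atg101 (chromosome 15, 101284272 to 101290945, plus strand), which stabilizes ATG13, went the other way, at 83.8, 95.9 and 72 CPM at ZT0, 108, 151 and 134 at ZT8, and 83.9, 70.4 and 109 at ZT16. All ZT8 libraries lay above ZT0, while ZT16 replicate 3 lay just above the lowest ZT8 library. Its log2 differences were 0.66 ± 0.17 (FDR 0.013) and −0.59 ± 0.17 (FDR 0.021).

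The class III PI3-kinase complex makes the phosphatidylinositol 3-phosphate to which WIPI proteins bind. None of its 6 members was called at ZT8 compared with ZT0, although 5 estimates were below 0. The unadjusted p of the edgeR test was 0.011 for Pik3c3, 0.024 for Uvrag, 0.030 for Ambra1 and 0.031 for Atg14. Such values were common in this pair, where 4915 of the 15572 genes had an unadjusted p below 0.05, 2522 of them lower at ZT8. At ZT16 compared with ZT8, Ambra1 and Uvrag were higher. Ambra1 (chromosome 2, 91730134 to 91918849, plus strand), a scaffold that links beclin 1 to regulators of initiation, was at 32.3, 18.4 and 22.5 CPM at ZT8 and 38.3, 40.6 and 33.2 CPM at ZT16. The groups did not overlap, with ZT8 replicate 1 close to ZT16 replicate 3, and the log2 difference was 0.61 ± 0.18 (FDR 0.028). Uvrag (chromosome 7, 98885021 to 99141141, minus strand), a beclin 1 partner, differed by 0.54 ± 0.18 (FDR 0.041) with overlapping groups, and was not called after the GC and length correction. Becn1, which encodes beclin 1, gave 0.06 ± 0.11 and −0.07 ± 0.11.

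Among the 8 genes for ATG9, ATG2 and the PROPPIN proteins, 2 were higher and 1 lower at ZT8 than at ZT0. Wdr45b (chromosome 11, 121327224 to 121354445, minus strand), which encodes WIPI3, was at 40.4, 40.7 and 44.3 CPM at ZT0 and 54.0, 58.7 and 57.0 CPM at ZT8, and differed by 0.45 ± 0.11 (FDR 0.010). The ZT8 libraries lay close together and all above ZT0. It was not called at ZT16 compared with ZT8 (−0.29 ± 0.11, FDR 0.069), where libraries were 46.2, 44.1 and 49.0 CPM and the groups did not overlap. With the GC and length correction this difference was −0.42 (FDR 0.018) and was called. Atg2b (chromosome 12, 105616136 to 105685211, minus strand), a lipid transfer protein, was at 74.6, 76.4 and 71.5 CPM at ZT0, 86.5, 108 and 96.8 at ZT8, and 78.9, 72 and 76.7 at ZT16. Its ZT8 libraries were above both other groups, by 0.40 ± 0.11 (FDR 0.020) over ZT0 and with ZT16 lower by −0.37 ± 0.11 (FDR 0.032).

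The paralog Atg2a gave −0.06 ± 0.12 and 0.10 ± 0.12 and was called in neither pair, and these signs turned with the GC and length correction (0.07 and −0.04). Atg9b was lower at ZT8 than at ZT0 by −0.59 ± 0.20 (FDR 0.0495), and this call was lost under several alternatives. The difference stayed between −0.58 and −0.60 with DESeq2 size factors, either lower count filter, the replicate block, the oligodendrocyte score or the libraries of the pair alone (FDR 0.051 to 0.080), and was −0.41 (FDR 0.12) with the GC and length correction. Its level was low, with a mean of 13.2 ± 1.44 CPM at ZT0 and 8.69 ± 1.83 at ZT8 (SD, n = 3), and it overlaps Nos3 on the other strand. Its paralog Atg9a, at 29.0 CPM per kb against 2.74 for Atg9b, gave −0.26 ± 0.14 (FDR 0.21).

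The 7 conjugation enzymes, which include the E1-like Atg7 and the E2-like Atg3 and Atg10, were called in neither pair. Their log2 differences ran from −0.37 (Atg7) to 0.21 (Atg12) at ZT8 compared with ZT0, and from −0.26 (Atg16l2) to 0.28 (Atg10) at ZT16 compared with ZT8. The E-box promoters described above all belong to genes called in neither pair, which held for 28 of the 40 members. A link between the E-box and the calls was not tested.

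In the Atg8 family all 5 estimates were below 0 at ZT8 compared with ZT0 and above 0 at ZT16 compared with ZT8, and 2 of the 5 were called in each pair. Map1lc3b (chromosome 8, 121590361 to 121598760, plus strand) was at 272, 293 and 260 CPM in the ZT0 libraries, 225, 194 and 239 in those of ZT4, and 238, 159 and 163 in those of ZT8. The ZT12 libraries held 262, 258 and 256 CPM, those of ZT16 319, 277 and 239, and those of ZT20 295, 276 and 241. The ZT8 libraries lay below all of those at ZT0, ZT12, ZT16 and ZT20, replicate 1 narrowly so. The log2 differences were −0.55 ± 0.14 (FDR 0.012) and 0.57 ± 0.14 (FDR 0.011). After the GC and length correction they were −0.34 (FDR 0.038) and 0.35 (FDR 0.035). Another protein-coding gene model (Gm20388) covers the gene on the same strand, and the counting model divides reads between them.

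Gabarapl1 (chromosome 6, 129533160 to 129542346, plus strand) was at 765, 646 and 691 CPM at ZT0, 603, 368 and 464 at ZT8, and 732, 753 and 579 at ZT16. The ZT8 libraries were below ZT0, whereas ZT8 replicate 1 was above ZT16 replicate 3. The log2 differences were −0.54 ± 0.15 (FDR 0.019) and 0.52 ± 0.15 (FDR 0.024).

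Gabarapl2 was at 199, 212 and 201 CPM at ZT0, 174, 181 and 159 at ZT8, and 208, 188 and 217 at ZT16, with no overlap between ZT8 and the others, and missed the threshold (−0.24 ± 0.10, FDR 0.082, and 0.25 ± 0.10, FDR 0.079). Map1lc3a was at 480, 516 and 433 CPM at ZT0, 453, 343 and 410 at ZT8, and 482, 443 and 501 at ZT16, with overlapping groups (−0.23 ± 0.11, FDR 0.16, and 0.23 ± 0.11, FDR 0.16). Gabarap was at 122.8, 140.1 and 124.2 CPM at ZT0, 112.8, 132.2 and 117.4 at ZT8, and 138.6, 123.1 and 132.4 at ZT16, and gave −0.08 ± 0.10 and 0.11 ± 0.10. After the GC and length correction Map1lc3a and Gabarapl2 were also called in both pairs, at −0.41 and −0.29 for ZT8 compared with ZT0.

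Of the 4 ATG4 proteases, Atg4b was called in both pairs and the others in neither. Atg4b (chromosome 1, 93751500 to 93790610, plus strand), which primes most Atg8 proteins, was at 85.5, 95.7 and 83.3 CPM at ZT0, 70.5, 55.3 and 60.4 at ZT8, and 90.0, 96.3 and 65.8 at ZT16. ZT8 lay wholly below ZT0, while ZT16 replicate 3 fell among the ZT8 libraries. The log2 differences were −0.49 ± 0.14 (FDR 0.017) and 0.43 ± 0.14 (FDR 0.035), the second not called after the GC and length correction. Nbr1 (chromosome 11, 101552149 to 101581951, plus strand), a cargo receptor for ubiquitinated proteins, was at 108, 99.2 and 120 CPM at ZT0, 84.9, 76.5 and 71.9 at ZT8, and 119, 136 and 97.8 at ZT16. Its ZT8 libraries lay close together and below both other groups, with log2 differences of −0.48 ± 0.13 (FDR 0.019) and 0.59 ± 0.13 (FDR 0.0089).

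**Figure D4:**
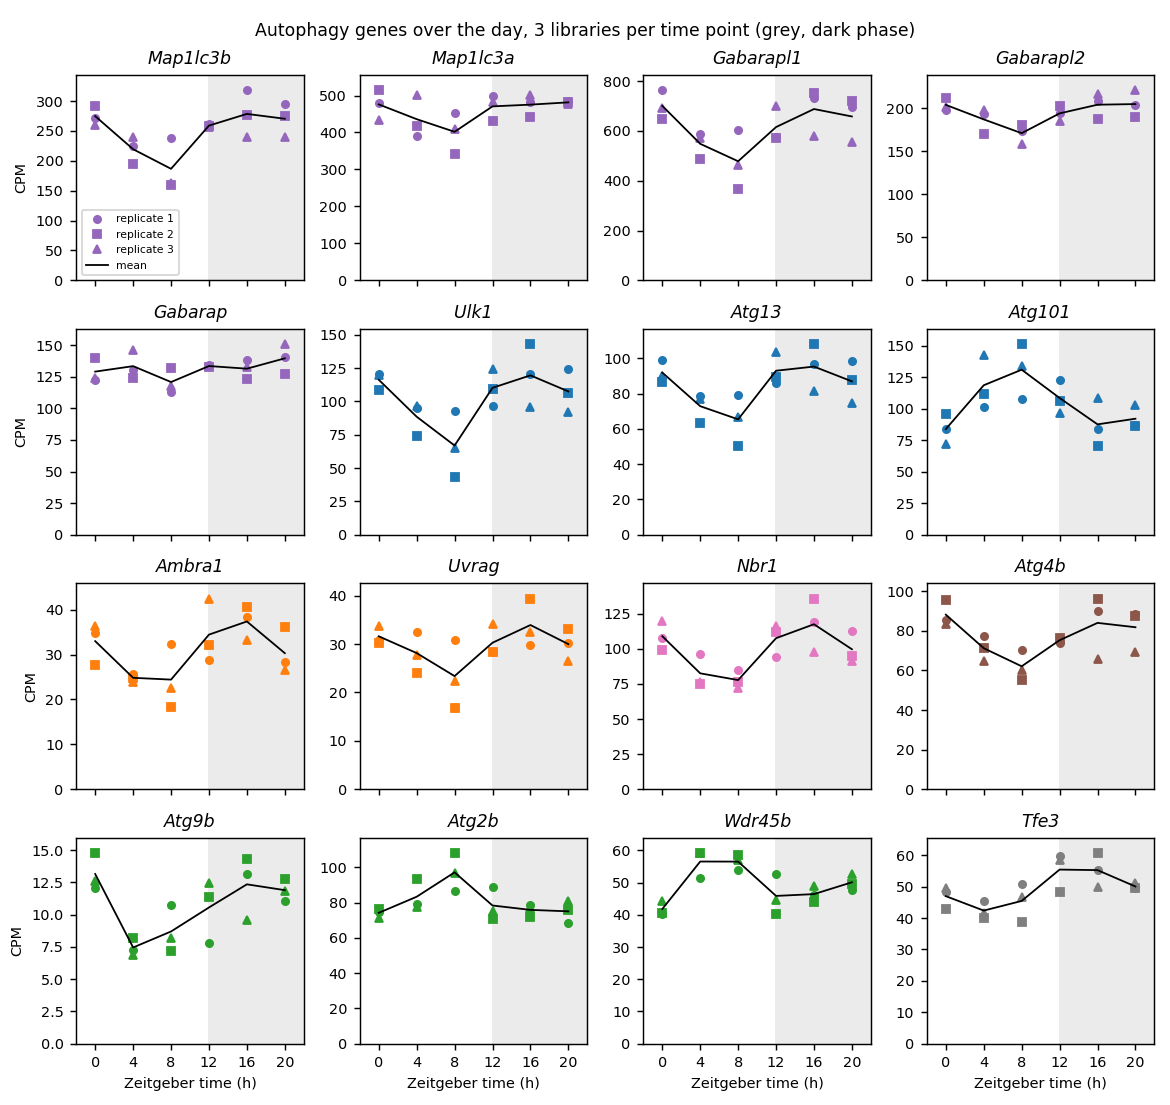
CPM in each of the 18 immunoprecipitates by Zeitgeber Time for the 5 Atg8 family genes, the other called members and Tfe3, with the 3 replicates as separate symbols, the mean as a line and the dark phase in grey. Ulk1, Map1lc3b, Gabarapl1, Atg13, Nbr1 and Atg4b reach their lowest mean at ZT8, and Atg101 and Atg2b their highest.

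Over all 6 time points fewer members were called than in these pairs. The edgeR test for any difference between the time points called 3 of 40 members (Nbr1, Map1lc3b and Wdr45b, FDR 0.035, 0.046 and 0.046), where 6.74% of genes were called. A cosinor with a period of 24 h called 4, where 6.24% of genes were called. These were Atg101 with a fitted peak at ZT7.8 and an amplitude of 0.30 on the log2 scale, Map1lc3b (ZT18.8, 0.26), Tfe3 (ZT15.4, 0.19) and Nbr1 (ZT17.7, 0.25), at FDR between 0.042 and 0.049. With an oligodendrocyte score as a covariate the cosinor called 0 members, where 0.0257% of genes were called. The amplitudes of these 4 were then 0.32 (Atg101), 0.27 (Map1lc3b), 0.20 (Tfe3) and 0.26 (Nbr1), at FDR between 0.058 and 0.065. With the GC and length correction the cosinor called 6 members, where 10.8% of genes were called. Atg101 and Nbr1 were among them, while Map1lc3b (0.17, FDR 0.066) and Tfe3 (0.14, FDR 0.052) were not. Both counts rested on single libraries, and the shares of all genes called without these libraries were not taken. For any difference, the count was 0 or 1 without any 1 of 13 libraries, 12 without ZT8 replicate 1 and 9 without ZT16 replicate 3, and only ZT4 replicate 1, ZT12 replicate 1 and ZT20 replicate 3 could be left out with little effect. For the cosinor it was 0 to 2 without any 1 of 13 libraries, 7 without ZT16 replicate 3 and 11 without ZT20 replicate 3, and only ZT8 replicate 1 and ZT12 replicates 2 and 3 could be left out with little effect.

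JTK_Cycle, a rank test against cosine curves with periods of 20, 24 and 28 h, called 0 members at an FDR of 0.05 (lowest FDR 0.10, Tfe3), where 0.0385% of genes were called. Without ZT16 replicate 3 it called 4, with the share of all genes not taken. Within each gene alone, 10 of 40 members had a JTK p-value below 0.05, where 15.9% of genes did. The best period was 20 h for 9 of the 10 and 24 h for 1. Libraries from a single day cannot tell periods of 20 and 24 h apart, so no period is drawn from this count. The best periods over all genes were not counted. Tfe3 (chromosome X, 7762560 to 7775202, plus strand), a transcription factor of lysosomal genes, was at 48.5, 43.0 and 49.6 CPM in the ZT0 libraries, 45.5, 40.01 and 41.7 in those of ZT4, and 50.7, 38.8 and 46.9 in those of ZT8. In the dark phase the ZT12 libraries held 59.7, 48.2 and 58.5 CPM, those of ZT16 55.3, 60.8 and 49.8, and those of ZT20 49.6, 49.6 and 51.1. All ZT4 libraries lay below every library of ZT12, ZT16 and ZT20, while ZT8 replicate 1 lay above the lowest of each.

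ZT20 compared with ZT8, dark against light phase, gave 0 members at an FDR of 0.05 with edgeR (lowest FDR 0.068), as it gave 0 of all genes (0.00%). At an unadjusted p below 0.05, 10 members were higher and 2 lower, where 11.9% of all genes were higher and 10.4% lower. DESeq2 called 6 members, with 4 higher at ZT20 (Ulk1 0.68, Map1lc3b 0.53, Gabarapl1 0.46 and Pik3c3 0.40) and 2 lower (Atg101 −0.51 and Atg2b −0.37), where it called 10.1% of genes. Leaving out ZT8 replicate 1 raised the edgeR count to 11, ZT16 replicate 3 to 2 and ZT20 replicate 3 to 1. The shares of all genes called in these fits were not taken. In the other 12 pairs of time points no member was called by edgeR. At an unadjusted p below 0.05 these pairs held between 0 and 13 members, where they held between 205 and 3275 of the 15572 genes (1.32% and 21%).

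Genes around the core machinery were read from lists of receptors, upstream kinases, nucleation regulators and fusion factors, of which 49 of 50 were tested. At ZT8 compared with ZT0, 6 were higher and 7 lower, where 8.95% of all genes were higher and 9.02% lower. At ZT16 compared with ZT8, 9 were higher and 3 lower, where 9.11% of all genes were higher and 7.80% lower. The median log2 differences were −0.06 and 0.09. Sqstm1, which encodes the cargo receptor p62, stood at 1076 ± 94.98 CPM at ZT0, 663 ± 65.1 at ZT8 and 1150 ± 179 at ZT16 (SD, n = 3), with log2 differences of −0.69 ± 0.12 (FDR 0.0052) and 0.79 ± 0.12 (FDR 0.0046). Vmp1, a lipid scramblase needed for autophagosome formation, differed by −1.54 ± 0.26 (FDR 0.0052) and 1.62 ± 0.26 (FDR 0.0048). Its level was 48.7 ± 7.52 CPM at ZT0, 16.7 ± 7.01 at ZT8 and 51.3 ± 15.5 at ZT16, below the 85.4 CPM of the input. The log2 ratio to the input was −1.27 for Vmp1 and 1.14 for Sqstm1. The part of mRNA from other cells in these differences was not tested.

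Of the 16 upstream genes, which encode the mTORC1 and AMPK kinases that restrain and promote autophagy and their regulators, 3 were lower and 2 higher at ZT8 than at ZT0, where 18.0% of all genes were called. Mtor, the kinase, differed by −1.05 ± 0.24 (FDR 0.0088), Rheb, its GTPase activator, by −0.49 ± 0.11 (FDR 0.0088), and Tsc2, which inhibits Rheb, by −0.79 ± 0.22 (FDR 0.018). Prkag2, a subunit of the energy sensor AMPK, was higher by 0.42 ± 0.12 (FDR 0.019). Of the SNARE proteins for fusion with the lysosome, Vamp7 was lower by −1.01 ± 0.25 (FDR 0.010) and Ykt6 higher by 0.43 ± 0.12 (FDR 0.017). Their log2 ratios to the input were −1.28 for Vamp7 and 1.15 for Ykt6. At ZT20 compared with ZT8, 0 of the 49 were called by edgeR (lowest FDR 0.059).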

How the data were processed

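Ribosome-bound mRNA of 18 immunoprecipitates and 1 pooled input was sequenced with a stranded kit. The authors deposited expected counts per gene from RSEM, made from reads aligned with STAR 2.7.5 to mm10 and not normalized. The strand setting of the counting was not given in the sources used here. Between 1.90% and 3.68% of values in a library were not whole, and expected counts were rounded. Reads shared by similar or overlapping genes are divided by a model.

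Genes were filtered with filterByExpr (15572 of 50559 kept), scaled by TMM and tested by quasi-likelihood in edgeR 4.0.16 (R 4.3.3) over 18 immunoprecipitates, with Benjamini-Hochberg adjustment at 0.05. SEs were taken from the F statistic. JTK_Cycle used log2 CPM with a prior count of 2. Printed CPM were scaled over all 19 libraries. Coordinates, lengths and overlaps came from GENCODE M21 and promoters from RefSeq, matched by symbol. DESeq2 1.42 and other scalings, filters, covariates and left-out libraries were alternatives. The tests were checked on simulated data.

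Replicates were separate mice, and no pair of replicates agreed within sampling noise (chi-square per degree of freedom 5.19 to 51.2). Library values were given for the Atg8 family, up to 8 members with the lowest p in each of the 2 pairs, 3 with the lowest cosinor p, and the 3 highest and 3 lowest input ratios at 100 or more input counts, with up to 8 genes of the wider lists. Other members are named in counts and ranges. The members were those matched by symbol. The wider lists and the rule for which genes to name were chosen with earlier results of these data known.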

Additional observations from a re-analysis of the deposited data

How the results depend on the processing

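None of the called differences of members reversed under the alternatives run. Atg2a, which was not called, changed sign in both pairs with the correction for GC content and transcript length (0.07 and −0.04). Besides the 10 and 10 members called in the ZT8 against ZT0 and ZT16 against ZT8 pairs, 0 at ZT20 against ZT8, 3 for any difference, 4 for the cosinor and 0 for JTK_Cycle, the following counts moved. With all genes of at least 1 count, ZT20 against ZT8, any difference and the cosinor gave 7, 9 and 10, where 6.41%, 10.8% and 9.18% of all genes were called, and with DESeq2 6, 12 and 11, where 10.1%, 19.5% and 20.9% were called. As reported these shares were 0.00%, 6.74% and 6.24%. The correction for GC content and transcript length, added after seeing the data, gave 3 at ZT20 against ZT8 and 5 for any difference, where 3.62% and 10.5% of genes were called. The cosinor gave 2 with library totals, with the share of all genes not taken, and 0 with the oligodendrocyte score, where 0.0257% were called. ZT16 against ZT8 gave 0 with the libraries of the pair alone, and JTK_Cycle gave 10 with adjustment within the gene alone. Members above the input were 3 with library totals and 13 at a 1.5-fold threshold, with the shares of all genes above it not taken at these settings. The causes were not tested. A fit to the pair alone uses 6 libraries, and for ZT8 against ZT0 such a fit gave 9 members. Single calls changed with the GC and length correction. Members lower at ZT8 had a median GC content of 52.8% and a length of 3902 bases, those higher 50.3% and 2321 bases, against 51.3% for all 40. Among all tested genes, those lower at ZT8 than at ZT0 had medians of 52.3% and 3229.5 bases. Those higher had 50.7% and 2231 bases, against 50.4% for all tested genes.

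Without 1 library or 1 replicate number the counts ranged from 0 to 15 and from 0 to 16 in the first 2 pairs, 0 to 11 at ZT20 against ZT8, 0 to 12 for any difference, 0 to 11 for the cosinor, 0 to 4 for JTK_Cycle (4 without ZT16 replicate 3), 5 to 6 above the input and 4 to 5 below it. Without replicate number 2 both pairs, any difference and the cosinor moved to 0, without number 3 the first pair and any difference, and without number 1 the cosinor. Shares of all genes called were not taken when libraries were left out.

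Deviations of same-numbered libraries of different time points correlated at −0.151 to 0.176 (median −0.00416, 4 of 45 over 0.1). Those of libraries with other numbers correlated at −0.210 to 0.183. Samples were treated as unpaired, but such correlations cannot exclude pairing, and the labels name only biological replicates. A replicate block gave 9, 10, 0, 2 and 3 members in the same order of tests and 2 for JTK_Cycle. The shares of all genes called with the block were not taken. Depth limits Atg4a, Atg16l2 and Wipi1, which had as few as 8, 11 and 18 counts in a library.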
